A study of Mus musculus with 6 samples.

Results

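The mouse mitochondrial genome carries 37 genes, which encode 13 mRNAs, 2 rRNAs and 22 tRNAs. All 37 were taken by their position on the mitochondrial chromosome (chrM, GRCm39) out of the 56691 genes counted, and their RNA was compared on both strands between control and cisplatin-injured kidneys. Total RNA of whole kidney came from C57BL/6 male mice that were 9 weeks old at the first injection. The control group (3 libraries) received saline and the cisplatin group (3 libraries) received 4 injections of 8 mg/kg cisplatin, a platinum drug that enters the cells of the kidney tubule and damages DNA, with the kidneys taken at week 7. Neither group carried a transgene, and each library came from 1 mouse. With 3 libraries against 3, an exact permutation test of a single value, counting both directions, cannot go below p = 0.1, so p-values are given only from fits across all genes.

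Mitochondrial DNA is a closed circle that is transcribed on both strands into long precursor RNAs. The tRNAs lie between the other genes, and their removal by RNase P and RNase Z releases the rRNAs and mRNAs. Most genes are read from 1 strand, and the RNA of the other strand is mostly degraded, so that mirror RNAs without a coding function accumulate little. The proximal tubule of the kidney is among the cells richest in mitochondria, because it reabsorbs solutes by active transport. In the annotation, the plus strand holds 28 of the genes (12 mRNAs, 2 rRNAs and 14 tRNAs). The minus strand holds 9, mt-Nd6 and 8 tRNAs. The opposite-strand count of a plus-strand gene is therefore RNA of the minus strand, and the opposite-strand count of mt-Nd6 is RNA of the plus strand.

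Genes of opposite strands overlap by 3 bases at mt-Ti and mt-Tq and at mt-Co1 and mt-Ts1. The longest such overlap is at the ends of mt-Nd5 (chrM:11742-13565, plus strand) and of mt-Nd6 (chrM:13552-14070, minus strand), which run towards each other and share 14 bases. These bases (capitals, chrM:13552-13565 within chrM:13544-13573, plus strand) are shown because mt-Nd6 is the only mRNA of the minus strand and its end overlaps a gene of the other strand:
mt-Nd5 and mt-Nd6 overlap: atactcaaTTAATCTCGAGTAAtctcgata
The capitals end in TAA, a stop codon of mt-Nd5. They begin with TTA, which reads TAA on the minus strand and ends mt-Nd6. A library that ignored the strand could not separate these RNAs.

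The deposited values were raw counts of read pairs per gene, given separately for each strand. Counted pairs on the transcript strand numbered 21891855 to 26627554 per library, of which mitochondrial genes took 48.4% to 51.0% in control and 43.3% to 50.6% with cisplatin. Counts were scaled to library size as CPM with TMM factors, which ran from 0.844 to 0.894 in control and from 1.05 to 1.26 with cisplatin. Among 15662 genes tested on the transcript strand (edgeR quasi-likelihood test, Benjamini-Hochberg adjusted p under 0.05), 3578 were lower and 3841 higher in cisplatin, with a median log2 fold change of 0.05. Scaling by library totals moved this median to 0.48 and gave 1376 lower and 8496 higher genes, and upper-quartile factors gave 0.14, with 2890 lower and 4774 higher. Replicates differed by more than counting noise (chi-square per gene 4.70 to 6.87 between control and 13.5 to 40.9 between cisplatin libraries). In whole tissue, fewer cells of a type and less RNA per cell cannot be told apart.

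The mitochondrial mRNAs took a smaller share of the counted pairs in cisplatin-injured kidney, while the rRNA shares overlapped. The 13 mRNAs together made up 2.90%, 2.83% and 3.0002% of the pairs in control and 2.15%, 1.91% and 2.02% with cisplatin, without overlap. Of these mRNAs, 6 lie almost wholly in a nuclear copy and held few counts, so sums and ratios of mRNA counts rest on the others. The 2 rRNAs made up 45.5%, 47.4% and 48.0% in control and 41.1%, 43.5% and 48.6% with cisplatin, which overlapped. Within a library, where no scaling enters, the rRNA count per mRNA count was 15.7, 16.7 and 16.0 in control and 19.2, 22.8 and 24.1 in cisplatin, a mean of 16.1 ± 0.546 against 22.001 ± 2.54 (SD, n = 3 each). The 22 tRNAs held 286 to 352 counts in a control library and 249 to 285 in a cisplatin library. No p is given for sums over the genes. The part of library preparation and RNA quality in the ratio of rRNA to mRNA counts was not tested.

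On the annotated strand, 17 of the 37 genes passed the low-count filter. Of these, 10 were lower and 0 higher in cisplatin, against 22.8% lower and 24.5% higher among all genes tested. At an unadjusted p under 0.05 in edgeR, and with DESeq2, the number higher was 0 as well. The median log2 fold change of the 17 was -0.95. Among the 9 mRNAs tested, 8 were lower and mt-Nd6 was not called. The 8 include mt-Co2 and mt-Co3, which lie in a nuclear copy and held few counts. Of the 2 rRNAs, mt-Rnr1 was lower, and of 6 tRNAs tested, mt-Ti was lower. The other 20 genes (4 mRNAs and 16 tRNAs) were too low to test, and 11 of the tRNAs held 0 counts in every library.

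**Figure D1:**
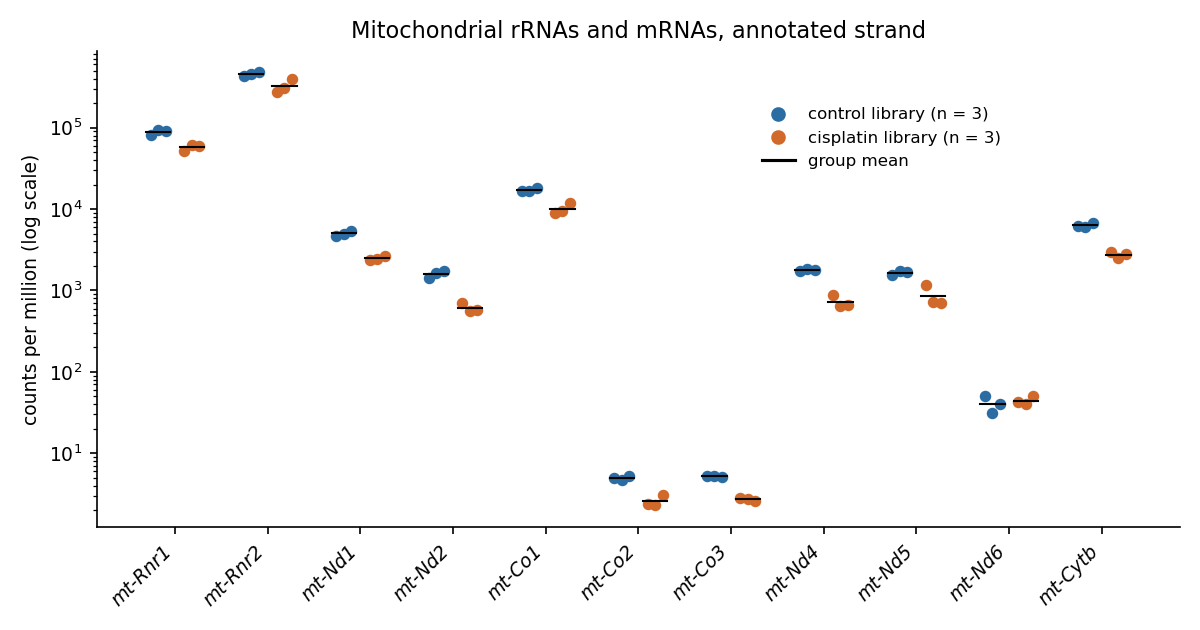
CPM (vertical axis, log scale) of the 2 rRNAs and the 9 tested mRNAs on the annotated strand in each library, with control in blue, cisplatin in orange and the group mean as a line. The cisplatin points lie below the control points for 10 of the 11 genes, and those of mt-Nd6 overlap with them. Among all genes tested on the transcript strand, the groups did not overlap in 57.8%.

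The rRNAs are the RNA frame of the mitochondrial ribosome. mt-Rnr1 (12S, small subunit, chrM:70-1024) measured 80994, 93858 and 89932 CPM in control and 52356, 60863 and 60394 CPM with cisplatin. The groups did not overlap, and the log2 fold change was -0.61 (SE 0.178, adjusted p = 0.0161, edgeR). This call was lost without control 2 (adjusted p = 0.0727) and without control 3 (0.0668). mt-Rnr2 (16S, large subunit, chrM:1094-2675) measured 428065, 462543 and 478827 CPM in control and 274719, 308575 and 402885 CPM with cisplatin. The groups did not overlap either, but the cisplatin libraries were spread widely and cisplatin 3 lay nearest to the controls. The log2 fold change of mt-Rnr2 was -0.47 (SE 0.242, adjusted p = 0.131, edgeR), and it passed the test without cisplatin 3 (-0.68, adjusted p = 0.00285). The count of mt-Rnr2 per count of mt-Rnr1 was 4.93 to 5.32 in control, 5.25 and 5.07 in cisplatin 1 and 2, and 6.67 in cisplatin 3.

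Complex I, which takes electrons from NADH, has 7 mitochondrially encoded subunits. mt-Nd1 (chrM:2751-3707) measured 4704, 5009.5 and 5444 CPM in control and 2380.2, 2404 and 2638 CPM with cisplatin (log2 fold change -1.03, SE 0.121, adjusted p = 5.93e-05). mt-Nd2 (chrM:3914-4951) measured 1413, 1649 and 1713 CPM in control and 699, 554 and 569 CPM with cisplatin (-1.39, SE 0.129, adjusted p = 1.18e-05). In both genes, the cisplatin libraries lay far below the lowest control library. mt-Nd4 (chrM:10167-11544) measured 1721, 1837 and 1759.96 CPM in control and 879, 639 and 656 CPM with cisplatin (-1.29, SE 0.137, adjusted p = 2.87e-05). mt-Nd5 measured 1564, 1724 and 1669 CPM in control and 1154, 726 and 694 CPM with cisplatin (-0.95, SE 0.180, adjusted p = 0.00147). Cisplatin 1 stood apart from the other cisplatin libraries in mt-Nd5, closer to the controls, and to a smaller degree in mt-Nd4 and mt-Nd2.

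mt-Nd6, the remaining tested subunit of complex I and the only mRNA of the minus strand, was not called. It measured 49.9, 31.5 and 39.8 CPM in control and 42.0, 40.1 and 49.9 CPM with cisplatin. The groups overlapped fully, and control 2 was the lowest of the 6. The log2 fold change was 0.12 (SE 0.151, adjusted p = 0.534). It turned to -0.04 without control 2 and to -0.01 without cisplatin 3. In counts that ignored the strand, the same gene was lower in cisplatin (-0.61, adjusted p = 0.000572). Plus-strand pairs outnumbered minus-strand pairs over mt-Nd6, which had 1188, 647 and 828 minus-strand and 4064, 4069 and 3894 plus-strand counts in the control libraries. Pairs from the end of mt-Nd5 that reach into the 14 shared bases count among these plus-strand pairs, and their part was not tested.

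Cytochrome b (mt-Cytb, chrM:14145-15288), the mitochondrially encoded subunit of complex III, measured 6244, 6095 and 6687 CPM in control and 2931, 2494 and 2838 CPM with cisplatin. The groups lay far apart, and the log2 fold change was -1.20 (SE 0.125, adjusted p = 2.49e-05). Complex IV reduces oxygen and has 3 mitochondrially encoded subunits. mt-Co1 (chrM:5328-6872), which holds the catalytic centre, measured 16751, 16864 and 18208 CPM in control and 8975, 9375 and 11785 CPM with cisplatin. The groups did not overlap, cisplatin 3 was the highest of the injured kidneys, and the log2 fold change was -0.78 (SE 0.154, adjusted p = 0.00183). mt-Co2 held 96 to 117 counts in control and 68 to 70 with cisplatin (log2 fold change -0.95, SE 0.158, adjusted p = 0.000644), and mt-Co3 held 107 to 126 and 59 to 82 counts (-0.95, SE 0.135, adjusted p = 0.000217). Both genes lie in a stretch that has a nuclear copy, where few pairs can be counted. The source of the pairs that were counted was not tested. Of complex V, the ATP synthase, mt-Atp8 held 0 to 2 and mt-Atp6 4 to 19 counts per library, and of complex I mt-Nd3 held 3 to 8 and mt-Nd4l 0 to 4, so none of these 4 was tested.

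Per kilobase of gene in the control libraries, mt-Rnr2 was highest at 288545 ± 16383 CPM per kb (SD, n = 3), followed by mt-Rnr1 at 92420.2 ± 6903. Among the mRNAs the order was mt-Co1 (11181 ± 525), mt-Cytb (5544 ± 269), mt-Nd1 (5279.7 ± 389), mt-Nd2 (1533 ± 152), mt-Nd4 (1286 ± 42.9), mt-Nd5 (906 ± 44.8) and mt-Nd6 (77.8 ± 17.8). The neighbours mt-Cytb (5328 to 5846) and mt-Nd1 (4916 to 5689) overlapped between libraries, and the other neighbours did not. With its whole count divided by only the bases outside identical nuclear runs, mt-Nd4 gave 3428 to 3660 CPM per kb, above mt-Nd2. Pairs that reach into the runs stay in that count, so this value is not the level of those bases alone. mt-Co1 alone made up 50.8% to 51.6% of the mRNA counts in control and 52.6% to 61.3% with cisplatin. The 6 mRNAs that lie almost wholly in a nuclear copy held few counts. They are left out of the order above and hardly enter the mRNA counts, so the share of mt-Co1 is not its share of mitochondrial mRNA.

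The tRNAs are far shorter (59 to 75 bases) than the read pairs, and STAR leaves out a pair that touches more than 1 gene of its strand, so that tRNA counts here come from few pairs. mt-Ti (isoleucine) had 116, 81 and 58 counts in control and 21, 36 and 40 with cisplatin, which did not overlap (log2 fold change -1.69, SE 0.298, adjusted p = 0.000897). mt-Tw (tryptophan), the tRNA with the most counts, had 105, 85 and 147 counts against 114, 98 and 112 (-0.38, adjusted p = 0.187). mt-Tq (glutamine) had 39 to 56 counts against 43 to 44 (-0.50, adjusted p = 0.0660). Only the first of these passed the test, although mt-Tq passed it without cisplatin 3 (-0.67, adjusted p = 0.0243). mt-Tp (proline) had 35 to 43 counts against 42 to 48 (-0.11, adjusted p = 0.711), mt-Tt (threonine) 10 to 14 against 10 to 30 (0.43, adjusted p = 0.409) and mt-Tm (methionine) 10 to 19 against 6 to 15 (-0.98, adjusted p = 0.0645). mt-Tt passed the test as higher without cisplatin 1 (0.81, adjusted p = 0.0424) and mt-Tm as lower without cisplatin 2 (-1.41, adjusted p = 0.0339). In the other 16 tRNAs no library held more than 5 counts.

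The size of these changes depended on the scaling. Scaled by library totals, which gave 8.79% lower and 54.2% higher among all genes, 8 mitochondrial genes were lower and 1, mt-Nd6, was higher (0.54, adjusted p = 0.0209), and the calls of mt-Rnr1 (-0.19, adjusted p = 0.0981) and mt-Nd5 (-0.50, adjusted p = 0.0763) were lost. Both values lay below the median of all genes under that scaling. Relative to the summed mitochondrial rRNA, with 5.94% lower and 52% higher among all genes, 6 mitochondrial genes were lower and mt-Nd6 was higher (0.62, adjusted p = 0.0191). The mRNAs still lower against rRNA were mt-Nd2 (-0.85, adjusted p = 0.00186), mt-Nd4 (-0.75, adjusted p = 0.00662), mt-Cytb (-0.68, adjusted p = 0.00147), mt-Nd1 (-0.51, adjusted p = 0.00196) and mt-Co1 (-0.28, adjusted p = 0.0101). mt-Nd5 (-0.38, adjusted p = 0.178), mt-Co2 (-0.44, adjusted p = 0.0814) and mt-Co3 (-0.43, adjusted p = 0.116) were not called against rRNA.

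**Figure D2:**
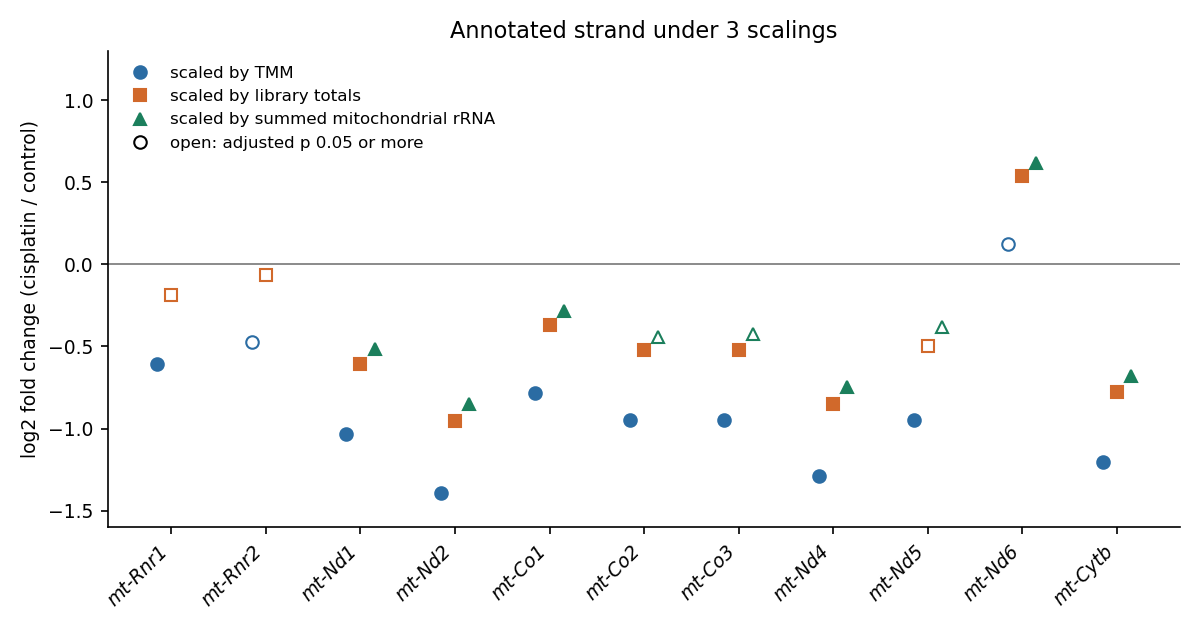
Log2 fold change of cisplatin over control (vertical axis) for the rRNAs and tested mRNAs on the annotated strand, scaled by TMM (circles), by library totals (squares) or by the summed mitochondrial rRNA (triangles, not shown for the rRNAs), with open symbols where the adjusted p was 0.05 or more. mt-Nd2, mt-Nd4 and mt-Cytb lie lowest under each scaling and mt-Nd6 highest, from 0.12 to 0.62.

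On the strand opposite to the annotated genes, 20 of the 37 genes were tested. Of these, 11 were lower and 0 higher, against 17.2% lower and 15.2% higher among the 3871 genes tested on that strand. The groups did not overlap in 44.2% of those 3871 genes. At an unadjusted p under 0.05 in edgeR 1 was higher (mt-Tw), and with DESeq2 0. Scaled by library totals, 5 were lower and 4 higher, against 7.49% lower and 39.7% higher of all genes. Sorted by the strand of the RNA over both annotated and opposite counts, 17 of 23 tested plus-strand values were lower and 0 higher (median log2 fold change -0.95). Of 14 tested minus-strand values, 4 were lower and 0 higher (median -0.25). Neighbouring genes of opposite strands can share pairs, so the values of an RNA strand are not all separate.

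RNA of the plus strand over minus-strand tRNA genes is not the tRNA itself, and it was lower over 6 of the 8 genes. Whether these pairs came from precursors or from the ends of neighbouring mRNAs was not tested, and mt-Ts1 shares 3 bases with mt-Co1. Over mt-Tq it measured 44.4, 49.5 and 54.7 CPM in control and 14.6, 13.4 and 16.9 CPM with cisplatin (log2 fold change -1.73, SE 0.125, adjusted p = 7.06e-10). The cisplatin libraries lay tightly together, far below the controls. Over mt-Te it measured 47.7, 51.2 and 59.2 CPM against 29.7, 17.0 and 20.1 CPM (-1.24, SE 0.159, adjusted p = 2.45e-06), again with cisplatin 1 nearest to the controls. Over mt-Ty the change was -1.37 (adjusted p = 2.45e-07), over mt-Tc -1.09 (adjusted p = 0.000778), over mt-Ts1 -0.72 (adjusted p = 0.00143) and over mt-Tn -1.18 (adjusted p = 0.00538, 0.0772 without control 3). In the nuclear genome, runs identical over at least 150 bases cover mt-Ty and mt-Ts1 wholly and mt-Tc to 78.8%, so their counts leave out pairs that match both places equally well. With library totals, the calls over mt-Ts1 (adjusted p = 0.0826) and mt-Tn (0.0683) were lost. Over mt-Ta (-0.06, adjusted p = 0.873) and mt-Tp (-0.32, adjusted p = 0.102, 0.0123 without cisplatin 3) it was not called. Over mt-Nd6 the plus-strand RNA measured 171, 198 and 187 CPM in control and 128, 87.5 and 80.4 CPM with cisplatin (-0.91, SE 0.159, adjusted p = 0.000134). These pairs can include ends of mt-Nd5 mRNA, which itself changed by -0.95, and their source was not tested.

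RNA of the minus strand over plus-strand genes was low and changed less. Over mt-Nd5 it measured 66.5, 41.8 and 53.9 CPM in control and 70.7, 52.6 and 66.6 CPM with cisplatin (log2 fold change 0.23, SE 0.151, adjusted p = 0.269). Over mt-Nd2 it measured 13.8, 7.39 and 11.1 CPM against 12.9, 9.34 and 15.7 CPM (0.22, SE 0.182, adjusted p = 0.385), and over mt-Nd4 1.65 to 2.69 against 1.91 to 2.79 CPM (0.23, adjusted p = 0.448). The groups overlapped in all 3 genes. Scaled by library totals, the minus-strand RNA over mt-Nd5 (0.65, adjusted p = 0.00671), mt-Nd4 (0.65, adjusted p = 0.0337), mt-Nd2 (0.63, adjusted p = 0.0204) and mt-Tw (1.58, adjusted p = 0.0222) was called higher. It was lower over mt-Cytb (-0.63, adjusted p = 0.00249), mt-Co1 (-0.57, adjusted p = 0.00315), mt-Rnr1 (-0.58, adjusted p = 0.000664) and mt-Rnr2 (-0.39, adjusted p = 0.0364), and none of these 4 calls held with library totals. The mt-Rnr2 call was also lost without each of 5 libraries (adjusted p = 0.0522 to 0.217) and held without cisplatin 3. Over mt-Nd1 (-0.54, adjusted p = 0.0517), mt-Ti (-0.39, adjusted p = 0.258), mt-Tt (0.37, adjusted p = 0.453) and mt-Tw (1.17, adjusted p = 0.0835, with 1 to 9 counts in control and 10 to 15 with cisplatin) it was not called. mt-Nd1 passed without control 2 (adjusted p = 0.0165) or cisplatin 3 (0.00300), and mt-Tw without control 3 (2.27, adjusted p = 0.0117).

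**Figure D3:**
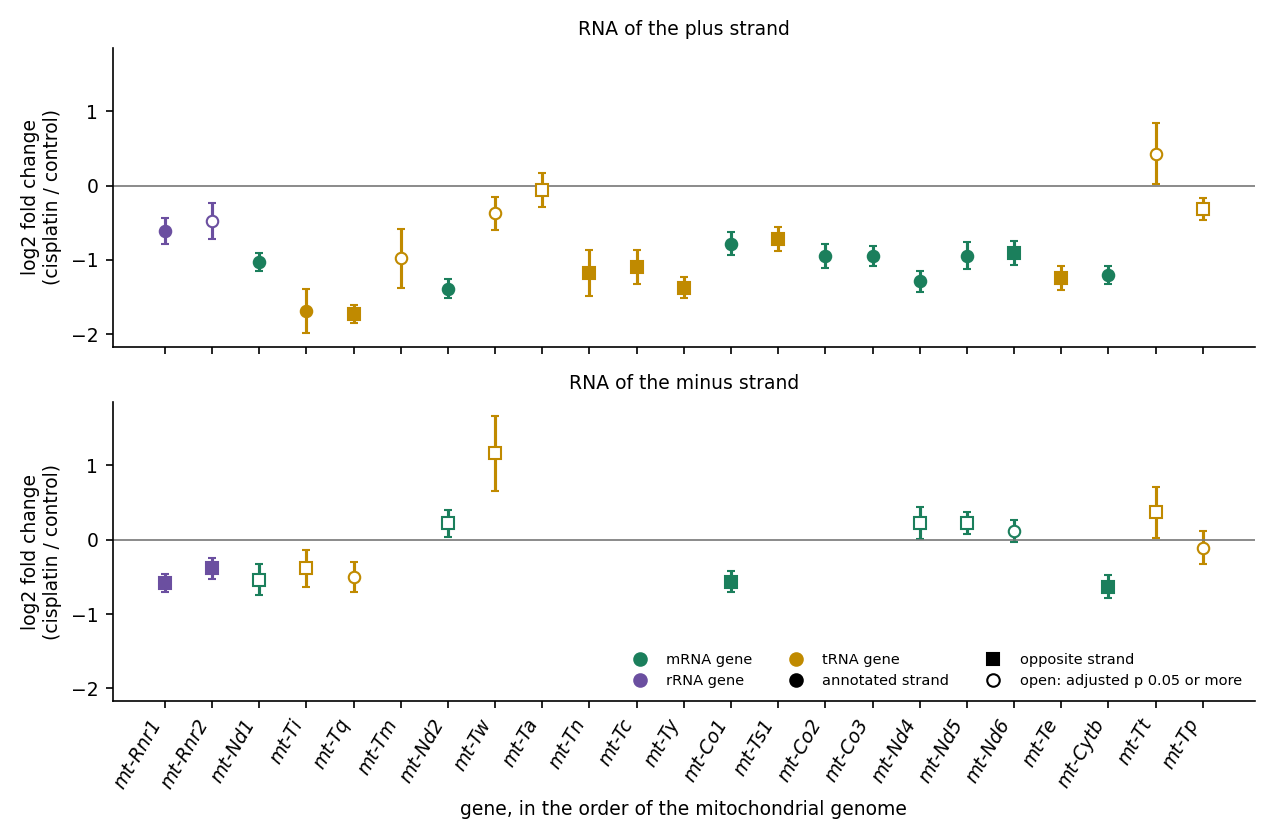
Log2 fold change of cisplatin over control with its standard error (vertical axes) for plus-strand RNA (top) and minus-strand RNA (bottom) at each tested gene, in genome order, with circles for the annotated and squares for the opposite strand, filled where the adjusted p was under 0.05. Plus-strand values run from -1.73 to 0.43 and are mostly filled, and minus-strand values run from -0.63 to 1.17 and are mostly open.

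The ratio of both strands within a library needs no scaling between libraries, and it was tested in 14 mitochondrial genes as the interaction of strand and group. The ratio of opposite to annotated strand was higher in cisplatin for 6 and lower for 2, against 19.1% higher and 17.2% lower among the 2255 genes tested. Both genes with a lower ratio, mt-Nd6 and mt-Tq, lie on the minus strand. Written as minus-strand counts per plus-strand count, the ratio was thus higher in cisplatin for 8 of 14 genes, lower for 0 and not called for 6. The 8 include mt-Tw, which passed the count filter on the minus strand through its cisplatin libraries alone, so its call carries no weight in this tally. Of the 8, mt-Nd5 and mt-Nd6 share 14 bases and mt-Ti and mt-Tq share 3, on opposite strands. A pair that reaches both genes can count for each of them, so the 8 ratios are not all separate.

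At mt-Nd5, the minus-strand counts per 100 plus-strand counts were 4.25, 2.43 and 3.23 in control and 6.12, 7.25 and 9.60 with cisplatin (log2 change 1.22, SE 0.227, adjusted p = 0.000182). At mt-Nd6 they were 29.2, 15.9 and 21.3 against 32.7, 45.8 and 62.0 (1.07, SE 0.229, adjusted p = 0.000786). At mt-Nd2 they were 0.975, 0.449 and 0.650 against 1.85, 1.69 and 2.76 (1.62, SE 0.255, adjusted p = 3.03e-05). In these 3 genes the groups did not overlap, with cisplatin above control, and control 1 was the highest control. mt-Nd4 moved from 0.0900 to 0.156 in control to 0.298 to 0.425 with cisplatin (1.53, SE 0.254, adjusted p = 5.86e-05), also without overlap. How many of all genes lacked overlap in this ratio was not computed.

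Among the tRNA genes, the ratio at mt-Tq was 5.29, 5.21 and 3.43 per 100 in control and 10.1, 10.8 and 11.4 with cisplatin (log2 change 1.22, SE 0.220, adjusted p = 0.000146). At mt-Ti it was 28.4, 35.8 and 39.7 against 119, 75.0 and 72.5 (1.32, SE 0.319, adjusted p = 0.00239). At mt-Tw it was 1.18 to 6.12 against 8.77 to 13.4 (1.57, SE 0.471, adjusted p = 0.0118), on 1 to 15 minus-strand counts per library, and the call was lost without control 1 (adjusted p = 0.0524) or control 2 (0.0529) and held without control 3. Only the cisplatin libraries reached 10 minus-strand counts at mt-Tw, so it entered the test through that group. With any cisplatin library left out, mt-Tw had too few counts to be tested. None of the 3 overlapped between groups. mt-Cytb, by contrast, overlapped, with 0.165 to 0.237 per 100 in control and 0.231 to 0.349 with cisplatin (0.59, SE 0.209, adjusted p = 0.0312). This call was lost without control 2 (adjusted p = 0.137), control 3 (0.114), cisplatin 2 (0.0847) or cisplatin 3 (0.0873), and with DESeq2 (0.106).

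The 6 genes whose ratio was not called were the 2 rRNAs, mt-Nd1, mt-Co1, mt-Tt and mt-Tp. mt-Rnr1 (0.0357 to 0.0424 per 100 in control and 0.0348 to 0.0426 with cisplatin) and mt-Rnr2 (0.0434 to 0.0475 and 0.0427 to 0.0523) held the lowest ratios. mt-Co1 (0.0456 to 0.0574 and 0.0564 to 0.0621) and mt-Nd1 (0.0660 to 0.112 and 0.0877 to 0.159) followed, and mt-Nd1 passed the test without cisplatin 2 (0.70, adjusted p = 0.0404). In 52 nuclear protein-coding genes with at least 10000 counts in every library, measured the same way, the median opposite-strand share was 0.0324% to 0.0338% in control and 0.0394% to 0.0435% with cisplatin, with 95th percentiles of 0.256% to 0.309% and 0.354% to 0.398%. The rRNAs and mt-Co1 lay near these medians. mt-Cytb lay below the 95th percentile of its library throughout, mt-Nd4 exceeded it in cisplatin 3 alone, and mt-Nd2 and mt-Nd5 exceeded it in every library. The nuclear median was itself higher in each cisplatin library. The opposite-strand share of all stranded counts was 2.78% to 2.88% in control and 3.20% to 3.34% with cisplatin. Pairs on no annotated gene of the transcript strand made up 4.63% to 4.86% in control and 9.32%, 6.63% and 6.09% with cisplatin. The part of these library differences in the strand ratios was not tested.

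Summed over mRNA and tRNA genes, minus-strand counts numbered 5.15, 3.29 and 3.89 per 1000 plus-strand counts in control and 8.64, 7.57 and 8.46 with cisplatin, a mean of 4.11 ± 0.953 against 8.23 ± 0.571 (SD, n = 3 each). The plus-strand sum was 32744 to 35886 CPM in control and 16358 to 19366 CPM with cisplatin. The minus-strand sum was 169, 110 and 139 CPM against 149, 124 and 164 CPM, which overlapped. mt-Nd5 and mt-Nd6 held 66.5% to 69.0% of the minus-strand counts in control and 71.1% to 75.6% with cisplatin. A pair that reaches neighbouring genes of opposite strands can enter these sums for each gene.

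**Figure D4:**
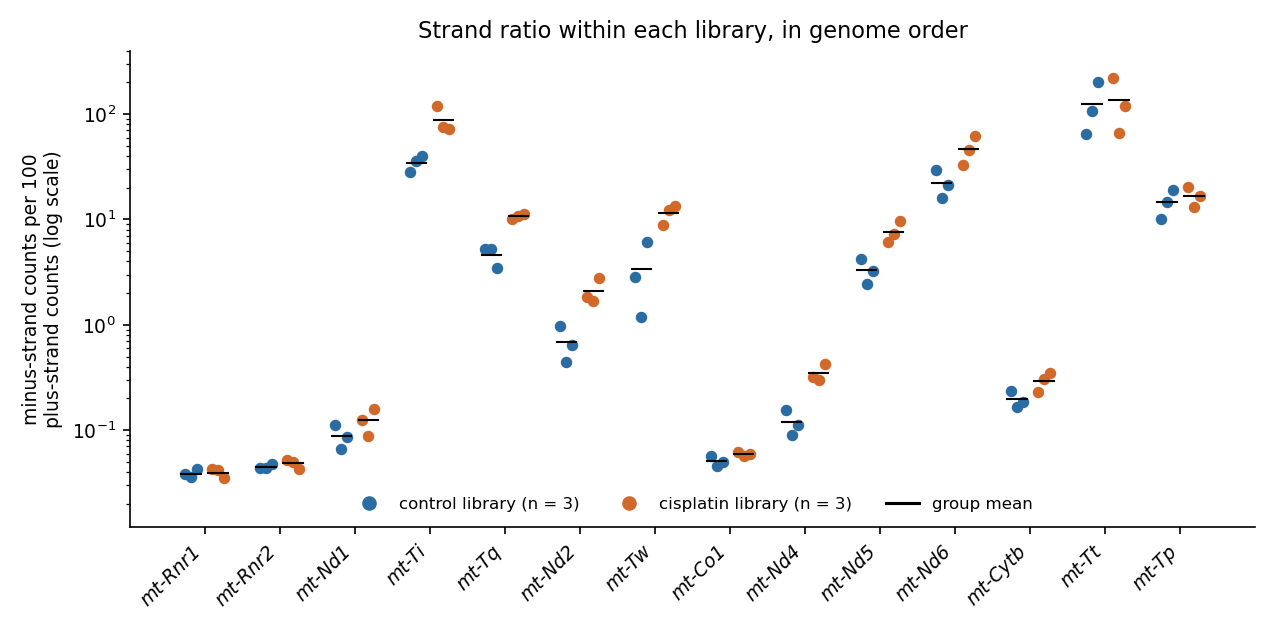
Minus-strand counts per 100 plus-strand counts (vertical axis, log scale) in each library for the 14 genes tested, in genome order, with control in blue, cisplatin in orange and the group mean as a line. Cisplatin points lie above control points at mt-Ti, mt-Tq, mt-Nd2, mt-Tw, mt-Nd4, mt-Nd5 and mt-Nd6, and the groups overlap at the other 7 genes. The share of all genes without overlap was not computed for this ratio. It was 57.8% in the fit of the transcript strand and 44.2% in that of the opposite strand, so lack of overlap is common and is given as description.

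A stretch of the mitochondrial genome has an almost identical copy in the nucleus, and its genes were hardly counted. The copy lies at chr1:24650616-24655269 (GRCm39, minus strand) and matches chrM:6390-11042, which is 4653 bases or 28.5% of the 16299 bases of the genome. Of 4654 aligned positions 4651 were identical (99.94%), with 2 mismatches and 1 base that only the nuclear copy has, and the longest identical run was 3067 bases. Read pairs that map equally well to both places are absent from gene counts, so genes inside such copies hold only pairs that fit the mitochondrial place better. Which pairs these were was not tested, also for mt-Co2, which lies well inside an identical run. Over all nuclear copies, 12 mitochondrial genes (6 mRNAs and 6 tRNAs) had over 99% of their bases in identical runs of at least 150 bases, the read length. These mRNAs were mt-Co2, mt-Atp8, mt-Atp6, mt-Co3, mt-Nd3 and mt-Nd4l, and on the annotated strand the highest count of any of the 12 genes in any library was 126, against at least 13065 in the other plus-strand mRNAs. Among the tRNAs, mt-Ts1 and mt-Ty held 580 to 937 and 122 to 323 counts on the opposite strand. Counts of these genes are not their abundance.

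The places where both copies can be told apart are shown because pairs that match both equally well are not counted. The base that differs is in capitals, in plus-strand orientation of the mitochondrial genome. The first is T9461C (mitochondrial base, position on chrM, nuclear base), at position 3 of mt-Nd3 (chrM:9449-9473 and chr1 position 24652198):
mt-Nd3, mitochondrial: gaagagagtaatTaacctgtacact
mt-Nd3, nuclear: gaagagagtaatCaacctgtacact
The second is an added A in a run of A in mt-Tr, the arginine tRNA (chrM:9817-9840 and chr1 position 24651830):
mt-Tr, mitochondrial: gtttaaaaaaaattaatgatttcg
mt-Tr, nuclear: gtttaaaaaaaaAttaatgatttcg
The third, A6393T in mt-Co1, is the fourth base of the copy. The copy also took in part of mt-Nd4 and mt-Co1, with 63.6% and 34.4% of their bases in identical runs. With their whole counts divided by the bases outside these runs, they gave 3531 and 17052 CPM per kb in control and 1444 and 9916 CPM per kb with cisplatin. Pairs that reach into the runs stay in these counts, so the values are not levels of those bases alone.

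The pseudogenes annotated in the nuclear copy also gained counts. Gm28438, the copy of mt-Nd3, held 257 to 276 counts in control and 142 to 178 with cisplatin on its own strand. On the opposite strand it held 130, 53 and 74 against 126, 113 and 136 counts. The mean count was 194 for Gm28437, 144 for Gm28661, 113 for Gm29216, 53.7 for Atp6-ps and 12 for Gm28439. Together the annotated copies measured 40.4, 44.3 and 38.7 CPM in control and 19.7, 17.4 and 26.6 CPM with cisplatin. The control libraries lay above the cisplatin libraries, and whether these pairs came from mitochondrial or nuclear RNA was not tested.

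**Figure D5:**
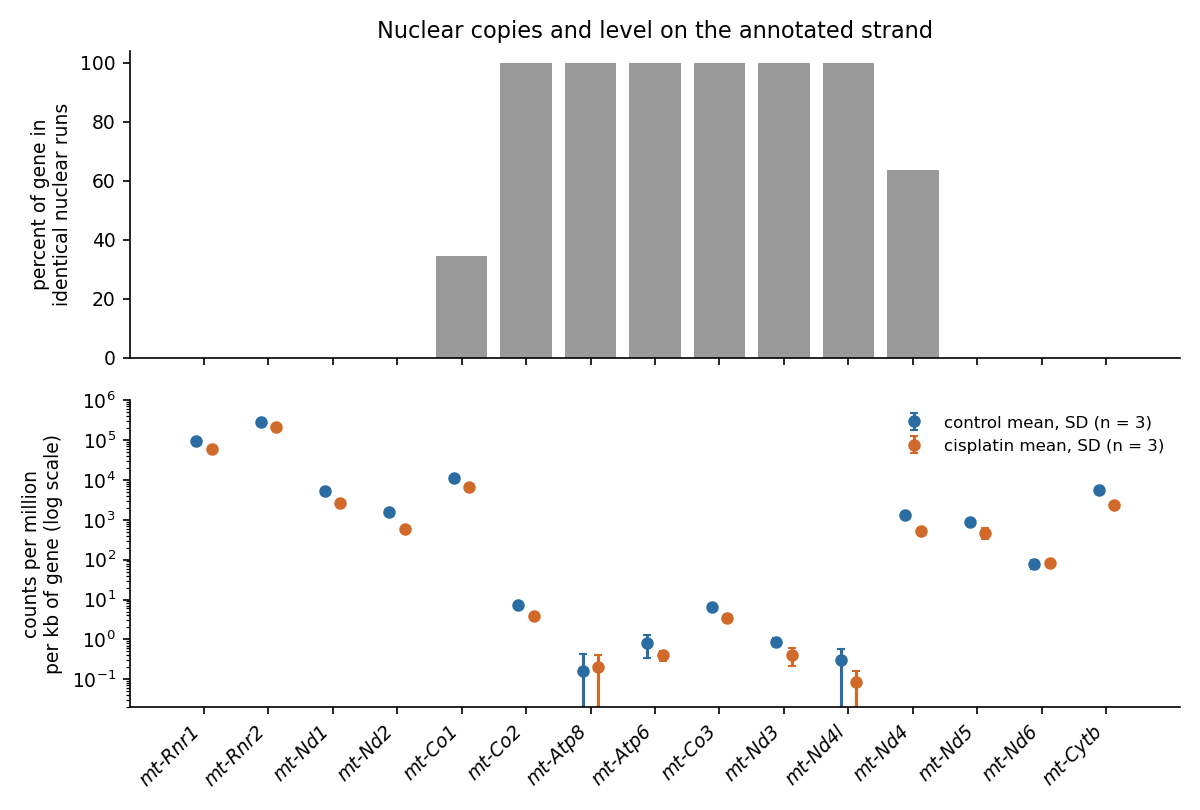
Percent of each rRNA or mRNA gene that lies in nuclear runs identical over at least 150 bases (top, bars) and its annotated-strand level in CPM per kb (bottom, log scale, mean and SD of 3 libraries per group; error bars that reach 0 run off the axis). The 6 mRNAs with over 99% of their bases in the copy sit below 10 CPM per kb, while the other genes sit between 77.8 and 288545 in control.

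Nuclear genes supply the proteins that copy, transcribe and process the mitochondrial genome. Of 58 such genes tested, 32 were lower and 1 higher, with a median log2 fold change of -0.38, against 22.8% lower and 24.5% higher of all genes (median 0.05). This turned with the scaling: with library totals 6 were lower and 17 higher (median 0.04, against 0.48 over all genes), while DESeq2 gave 31 lower and 0 higher. For transcription, 7 of 10 were lower (0 lower and 0 higher with library totals). Among them were Mrpl12 (-0.91, adjusted p = 0.00141), a ribosomal protein that also binds the RNA polymerase, Tfam (-0.46, adjusted p = 0.00165), which packs the DNA and starts transcription, the initiation factor Tfb2m (-0.56, adjusted p = 0.00226) and Mterf3 (-0.44, adjusted p = 0.00350). The polymerase Polrmt itself fell from 15.3 ± 0.857 to 10.7 ± 1.85 CPM (-0.50, adjusted p = 0.00889); it was named after its value was seen. For genome maintenance, 6 of 13 were lower (0 lower and 6 higher with library totals). They were led by the topoisomerase Top1mt (-0.66, adjusted p = 0.000344), the nucleotide reductase subunit Rrm2b (-0.60, adjusted p = 0.000908), the DNA polymerase Polg (-0.42, adjusted p = 0.00211) and the exonuclease Mgme1 (-0.76, adjusted p = 0.00249). Tk2, the mitochondrial thymidine kinase, was the 1 gene that rose (0.29, adjusted p = 0.0462).

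For RNA processing and modification, 8 of 20 were lower, against 22.8% of all genes (2 lower and 8 higher with library totals). They were led by the tRNA modifying enzymes Mto1 (-1.09, adjusted p = 8.72e-06) and Pus1 (-0.67, adjusted p = 0.000404), the rRNA methyltransferase Mrm2 (-0.82, adjusted p = 0.00153) and the RNase P subunit Trmt10c (-0.69, adjusted p = 0.00189). For RNA stability and decay, 11 of 15 were lower (4 lower and 3 higher with library totals). Lrpprc, which protects mitochondrial mRNAs, fell from 120.1 ± 4.59 to 61.9 ± 3.60 CPM (-0.96, SE 0.0853, adjusted p = 8.97e-06), and the RNA granule protein Grsf1 from 93.2 ± 1.29 to 52.0 ± 2.38 CPM (-0.84, adjusted p = 1.36e-05). Fastkd1 (-0.77, adjusted p = 9.69e-05) and Supv3l1, the helicase of the machinery that degrades mirror RNA (-0.69, adjusted p = 0.000233), fell too. Its partner Pnpt1, the nuclease, was also lower (-0.46, adjusted p = 0.00449; named after its value was seen). Of the nuclear subunits of complexes I, III, IV and V, which join the mitochondrially encoded subunits, 66 of 73 tested were lower and 0 higher (median -0.55), against 22.8% lower and 24.5% higher of all genes. No subunit was higher at an unadjusted p under 0.05 in edgeR or with DESeq2, and with library totals 26 were lower and 2 higher (median -0.13), against 8.79% lower and 54.2% higher of all genes.

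Markers of several kidney cell types moved in the same libraries, against 22.8% lower and 24.5% higher among all genes (8.79% and 54.2% with library totals). The 9 proximal tubule markers summed to 8481 to 9644 CPM in control and 3706 to 4271 CPM with cisplatin, with 8 of 9 lower (5 lower and 1 higher with library totals). Lrp2 and Slc34a1 changed by -1.42 each (adjusted p = 9.75e-06 and 6.12e-06), and Aqp1 was not called. Other tubule segments went both ways: of 3 thick ascending limb markers, Slc12a1 (0.46) and Cldn16 (1.22) were higher and Umod (-0.50) lower, of 3 collecting duct markers, Aqp2 (1.12) and Scnn1g (0.71) were higher, and of 3 distal tubule markers 2 were lower. With library totals, in the same order of segments, 0, 0 and 1 were lower and 2, 3 and 0 higher. Of 3 endothelial markers 2 were lower (0 lower and 1 higher with library totals), and the 3 podocyte markers were not called (2 higher with library totals). The 3 fibroblast markers summed to 92.5 to 111 CPM against 202 to 300.02 CPM, with 3 of 3 higher under both scalings, and the 4 macrophage markers to 51.1 to 59.4 against 87.5 to 111 CPM, with 3 of 4 higher (4 of 4 with library totals). Markers of T cells (0.721 to 1.26 against 1.53 to 1.995 CPM) and B cells (0.336 to 0.632 against 0.201 to 0.436 CPM) summed to low levels, and the 1 tested among them, Cd8a, was higher (1.19, adjusted p = 0.00939). The part of these markers in the mitochondrial results was not tested.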

How the data were processed

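Kidney total RNA of 3 control and 3 cisplatin mice was sequenced as 150-bp read pairs from stranded libraries (QIAseq Stranded RNA Lib Kit). The authors trimmed adapters with Cutadapt, aligned to mm39 with STAR and deposited raw counts per gene, without normalization, as pairs without regard to strand and for each strand. Which STAR settings and which annotation were used is not stated by the sources used here. Pairs mapped to several places (11.5% to 12.9%) are not in these counts. The last column was taken as the transcript strand, since it held 75561089 counts on nuclear genes against 4471421 in the other.

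Gene names and positions came from GENCODE vM39 (GRCm39), which had a record for 56017 of 56691 gene IDs and for all 37 mitochondrial genes. Rows that name no gene stayed out of library sizes. The mitochondrial genes and the lists of nuclear genes were chosen with earlier results of these data known.

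Counts were tested with edgeR 4.0.16 (filterByExpr with minimum count 10 and minimum total 15, TMM, quasi-likelihood F test, Benjamini-Hochberg over all genes tested, threshold 0.05). Opposite-strand counts were fitted with the library sizes and TMM factors of the transcript strand. The strand ratio was the strand by group interaction with library as a block, in genes with at least 10 counts in at least 3 libraries on each strand. Fits were tested on simulated data. Nuclear copies were searched with blastn 2.17.0 (word size 28, E-value limit 1e-5). Named genes were the mitochondrial mRNAs and rRNAs, the tRNAs tested or among the 6 highest, up to 4 nuclear genes per role and direction by adjusted p, and pseudogenes in the copy with a mean of at least 10 counts. Genes named outside this rule are marked. Alternatives included DESeq2 1.42.0, other scalings and filters, and leaving out each library. The work used R 4.3.3, Python 3.11.15 and pandas 2.3.3. Only count files were used, and other experiments of the study were not analysed here.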

Additional observations from a re-analysis of the deposited data

How the results depend on the processing

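With 3 libraries per group, p-values rest on a spread shared across genes, and tRNA and mirror RNA counts under about 100 limit precision. The count of mitochondrial genes lower on the annotated strand was 10, 8 to 11 under other tests, scalings, filters and thresholds, and 6 relative to mitochondrial rRNA, where the rRNAs are left out. Genes higher there numbered 0, and 1 with library totals or relative to rRNA. On the opposite strand 11 were lower and 0 higher, against 5 and 4 with library totals. Leaving out each library gave 9 to 12 lower and 0 to 1 higher on the annotated strand, 9 to 13 lower and 0 to 1 higher on the opposite strand, and 4 to 5 higher and 2 lower strand ratios against 6 and 2, where mt-Tw was not tested without a cisplatin library. The mRNA share changed by -0.52 (log2), or -0.62 per nuclear pair (-0.57 to -0.48 without single libraries), and the tRNA share by -0.15, or 0.0266 ignoring the strand (-0.25 to -0.0960 without single libraries). In 100-base windows 14 in place of 12 genes lay in identical runs.

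Directions that turned were all of genes not called in the reported fit, except mt-Rnr2 on the opposite strand. With library totals they were mt-Tw (0.0486) and mt-Tp (0.32) on the annotated strand and mt-Rnr2 (0.0355), mt-Ti (0.0343), mt-Ta (0.37) and mt-Tp (0.0954) on the opposite strand. Relative to rRNA, mt-Tw was 0.14 and mt-Tp 0.40. Ignoring the strand, mt-Nd6 was -0.61, as plus-strand pairs are then counted. With the DESeq2 interaction the strand ratio of mt-Tt was 0.0404. Without single libraries, mt-Nd6 ran from -0.0351 to 0.30 and mt-Tp from -0.28 to 0.0173 on the annotated strand, mt-Ta from -0.21 to 0.22 on the opposite strand, and the strand ratios of mt-Tt from -0.37 to 0.40, mt-Tp from -0.43 to 0.0320 and mt-Rnr1 from -0.0273 to 0.12. With DESeq2, or with no low-count filter, mt-Rnr2 was called lower (adjusted p = 0.000987 and 0.00042). The cause was not tested.

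The replicate numbers alone do not say whether libraries were paired. Deviations of same-numbered libraries correlated by 0.133, 0.142 and 0.0997, and those of different numbers by -0.126 to -0.0259. Each library correlated best with its own number, which is a hint from the data and not the design. A fit with a replicate block gave 10 lower on the annotated strand and 12 lower on the opposite strand, where mt-Nd1 was added (adjusted p = 0.0177).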
